A study of Sus scrofa with 12 samples.

Results

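The KMT2 set described here held 10 genes of the 29884 in the gene table, taken by their exact symbols: the 7 methyltransferases KMT2A, KMT2B, KMT2C, KMT2D, KMT2E, SETD1A and SETD1B and the 3 complex partners WDR5, ASH2L and MEN1. All 10 passed the filter on low values, which kept 12260 genes. The pig (Sus scrofa) ovaries came from multiparous commercial sows, and 1 left ovary per sow was frozen 4 days after the sow's delivery number 4. The SLS group (small litter size) consisted of ovaries ZD2, ZD3 and ZD12, and the LLS group (large litter size) of ovaries ZD5, ZD7 and ZD8. The submitters gave mean litters of 8.48 ± 0.53 piglets in SLS and 16.19 ± 0.43 piglets in LLS. The study's methods give its errors in general as SEM and the series text does not name the kind for these litters. No breed, age or treatment of the sows is given in the sources used here. The unit is FPKM, fragments scaled to transcript length and to the mapped reads of the library, from total RNA depleted of ribosomal RNA, with 1 library per ovary.

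Most proteins of this family place methyl groups on lysine 4 of histone H3, a mark of active promoters and enhancers. Apart from KMT2E, the methyltransferases work in complexes of the COMPASS type with a shared core that includes WDR5 and ASH2L, and they differ in the sites they serve: SETD1A and SETD1B trimethylate promoters widely, KMT2A and KMT2B act at chosen promoters, and KMT2C and KMT2D monomethylate enhancers. KMT2B is needed in growing mouse oocytes, and KMT2C and KMT2D act as coactivators of nuclear receptors. The series is about circular RNA, and KMT2A is the host of a circular RNA that the study measured. A circle of KMT2A exons gives reads on the same exons as the linear transcript, so that the gene's FPKM does not separate the 2 forms, and circular junctions were not analysed here.

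Sequencing depth, taken as the library total inferred from the FPKM values, was 51703531 to 60903268 reads in the other 5 libraries and 32272803 in ZD8. ZD8 also stood apart in its profile: its Spearman correlation with the other libraries across genes averaged 0.765, against 0.903 to 0.92 for the rest, and 13908 genes reached 1 FPKM in it, against 11832 to 12531. The summed level of 7 luteal markers was 124 FPKM in ZD8 and 9170 to 12200 FPKM in the other 5, a pair of theca markers reached 415 against 9.31 to 74.4 FPKM, and 7 oocyte markers reached 125 against 6.47 to 22.8 FPKM. All 6 luteal markers that passed the filter were lower in ZD8 than in every other ovary. The remaining luteal marker, PRLR, did not pass it and was highest in ZD8 (1.16 FPKM, against 0 to 0.167). The luteal sums ran from 9170 to 10800 FPKM in SLS and from 124 to 12200 in LLS. Endothelial markers summed to 106 FPKM in ZD8 and 236 to 359 in the others. CYP19A1, the aromatase gene that defines estrogen-making granulosa cells, was at 0 in 5 ovaries and at 0.0137 FPKM in ZD5. The other granulosa markers varied between ovaries. FSHR (10.8 FPKM), AMH (12) and FOXL2 (37.8) were highest in ZD8. In ZD2 and ZD3, FSHR (0.263 and 0.202 FPKM) and AMH (0.208 and 0.346 FPKM) were below 1 FPKM. INHA ran from 66.4 FPKM in ZD8 to 726 FPKM in ZD12. The comparisons of LLS with SLS below are therefore given with and without ZD8, and in such whole ovaries fewer cells of a type and less RNA per cell cannot be told apart. Counting error was small for the members, since each value rested on at least 897 reads (MEN1 in ZD3) and on up to 20816 reads (KMT2A in ZD8).

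In the RefSeq annotation of Sscrofa11.1, the build the reads were mapped to, KMT2A is at chr9:45743566-45828559 on the plus strand, where its longest transcript has 37 exons and 16718 bases. KMT2E lies on the same chromosome at chr9:104876301-105007161 (plus strand). The sequences below are the 250 bases before the annotated start of KMT2A (chr9:45743316-45743565), KMT2E (chr9:104876051-104876300) and WDR5 (chr1:273560024-273560273), each read on the plus strand with every CG in capitals. They are shown because KMT2A is the host of the circular RNA, because KMT2E was likewise high in ZD8 and has a very different upstream window, and because WDR5 was the member that was not highest in ZD8.

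KMT2A: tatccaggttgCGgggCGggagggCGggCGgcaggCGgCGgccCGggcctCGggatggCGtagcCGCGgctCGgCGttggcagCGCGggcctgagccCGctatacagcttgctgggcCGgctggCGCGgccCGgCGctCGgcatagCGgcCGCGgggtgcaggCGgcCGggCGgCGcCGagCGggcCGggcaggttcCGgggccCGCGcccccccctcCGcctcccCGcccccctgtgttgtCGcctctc
KMT2E: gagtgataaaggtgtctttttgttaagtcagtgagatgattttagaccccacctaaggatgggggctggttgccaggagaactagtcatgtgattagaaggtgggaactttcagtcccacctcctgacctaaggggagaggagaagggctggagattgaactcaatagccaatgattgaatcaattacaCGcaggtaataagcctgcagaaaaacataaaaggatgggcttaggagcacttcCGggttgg
WDR5: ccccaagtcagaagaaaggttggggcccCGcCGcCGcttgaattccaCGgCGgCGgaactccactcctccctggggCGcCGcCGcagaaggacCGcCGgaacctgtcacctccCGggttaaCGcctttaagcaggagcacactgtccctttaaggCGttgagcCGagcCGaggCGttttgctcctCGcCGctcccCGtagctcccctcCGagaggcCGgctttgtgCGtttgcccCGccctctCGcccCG

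The KMT2A window holds 38 CG, the WDR5 window 26 and the KMT2E window 2, where the median of 20632 protein-coding genes was 11. KMT2A was thereby at the 95.3 percentile of all genes and KMT2E at the 11.6 percentile. SETD1B (41 CG), KMT2C (37) and KMT2B (33) were of the CG-rich kind, ASH2L had 15 and MEN1 14, and KMT2D (7) and SETD1A (1) were CG-poor before their annotated starts. Of the motifs searched on both strands, GGGCGG was in 7 of the 10 windows and in 44.5% of all windows, and CCGGAA was in those of KMT2A, KMT2E and WDR5 and in 13.1% of all. CCAAT was in those of KMT2E and MEN1 and in 32% of all, and CG itself in 94.9% of all. A match is a run of letters and no measured site, and the part of these windows in the levels of the genes was not tested.

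KMT2A, the founding member of the family and the regulator of HOX genes that is broken in leukaemia, stood at 11.4, 15.2 and 13.1 FPKM in ZD2, ZD3 and ZD12 (SLS) and at 12.6, 12.6 and 38.6 FPKM in ZD5, ZD7 and ZD8 (LLS). Both other LLS ovaries lay inside the SLS range, and ZD8 was 2.54 times the highest other ovary. Group means were 13.2 ± 1.87 FPKM in SLS and 21.3 ± 15 in LLS (SD, n = 3 each), and the log2 difference of LLS minus SLS was 0.46 (SE 0.43, 95% interval -0.53 to 1.45, limma adjusted p = 0.999, exact two-sided permutation p = 0.7). Without ZD8 the difference was -0.05 (SE 0.24, limma adjusted p = 1). The 5 other ovaries averaged 13 ± 1.37 FPKM (SD, n = 5), and the highest of them was 1.33 times the lowest, where the median of this ratio over all tested genes was 1.81. The ratio was lower still in KMT2D (1.24) and KMT2C (1.3), and its median over the 10 members was 1.61.

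KMT2B, the closest paralog of KMT2A, was measured at 6.01, 4.32 and 7.6 FPKM in SLS and at 4.37, 5.79 and 15.7 FPKM in LLS, in the same order of ovaries. Its groups overlapped, with ZD8 at 2.06 times the highest other ovary, and its log2 difference was 0.31 (SE 0.45), or -0.18 (SE 0.29) without ZD8. The gene is at chr6:45146863-45166854 with 38 exons.

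KMT2C and KMT2D encode the enhancer methyltransferases. KMT2C stood at 12.1, 13.3 and 12.7 FPKM in SLS and at 11.6, 10.2 and 36.8 FPKM in LLS, where ZD8 was 2.78 times the highest other ovary. It was thus the member with the most even SLS values (12.7 ± 0.586 FPKM), and its 2 LLS ovaries other than ZD8 were both below all 3 SLS ovaries. Without ZD8 the groups of 19.1% of all tested genes did not overlap, in either direction. The log2 difference of KMT2C changed from 0.35 (SE 0.45) with all ovaries to -0.21 (SE 0.23, limma adjusted p = 1) without ZD8. KMT2D was at 15.2, 12.3 and 15 FPKM in SLS and at 13.1, 14.5 and 25.5 FPKM in LLS. ZD8 exceeded the highest other ovary by a smaller factor in KMT2D (1.67), and the log2 difference was 0.25 (SE 0.31), or -0.03 (SE 0.24) without ZD8. KMT2C spans chr18:4993213-5279668 with 61 exons and contains the pseudogene LOC110257607 on its own strand, and KMT2D spans chr5:15049827-15091622 with 56 exons.

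KMT2E is related to this family by sequence but is held to lack methyltransferase activity, and its reader domain binds methylated lysine 4. It had 8.21, 17.2 and 13.5 FPKM in SLS and 11.6, 9.43 and 37.2 FPKM in LLS. Its values outside ZD8 were the most uneven in relative terms among the methyltransferases, at 12 ± 3.53 FPKM over 5 ovaries, and the SLS ovaries ZD2 and ZD3 held the lowest and the highest of them. The log2 difference was 0.35 (SE 0.51), or -0.23 (SE 0.31) without ZD8. KMT2E overlaps LOC106504991 on the other strand, a gene listed at 0.702 to 4.11 FPKM, and whether reads were assigned by strand is not given in the sources used here.

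SETD1A and SETD1B, which carry most promoter trimethylation, were the lower-level methyltransferases together with KMT2B. SETD1A stood at 3.8, 3.49 and 4.99 FPKM in SLS and at 3.39, 3.92 and 7.02 FPKM in LLS, the lowest member in every ovary. SETD1B was at 7.04, 5.61 and 8.05 FPKM in SLS and at 5.76, 6.55 and 16.8 FPKM in LLS. ZD8 was 1.41 times the highest other ovary in SETD1A and 2.09 times in SETD1B, so that these close paralogs differed in how far ZD8 exceeded the rest. Their log2 differences were 0.14 (SE 0.32) and 0.31 (SE 0.40), and without ZD8 -0.12 (SE 0.26) and -0.13 (SE 0.26). SETD1A is at chr3:17463768-17490397 and SETD1B at chr14:30862155-30885592, both on the minus strand.

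WDR5, the subunit that holds the core complex together, was at 7.47, 5.3 and 9.66 FPKM in SLS and at 4.59, 7.32 and 7.98 FPKM in LLS. ZD12 was the highest ovary, ZD8 was at 0.826 of it, and the groups overlapped with a log2 difference of -0.15 (SE 0.32), or -0.28 (SE 0.31) without ZD8. ASH2L, the core subunit that stimulates catalysis, was at 9.26, 9.57 and 15.8 FPKM in SLS and at 9.53, 8.18 and 20 FPKM in LLS. Here ZD12 came near ZD8 (1.26 times ZD12), and the remaining 4 ovaries lay between 8.18 and 9.57 FPKM. MEN1 encodes menin, the tumour suppressor that tethers KMT2A and KMT2B to their targets, and was at 9.27, 6.18 and 10.8 FPKM in SLS and at 6.16, 7.91 and 18.2 FPKM in LLS. The log2 difference was 0.05 (SE 0.38) for ASH2L and 0.16 (SE 0.41) for MEN1, and without ZD8 -0.31 (SE 0.29) and -0.26 (SE 0.29). WDR5 is at chr1:273560274-273577827, ASH2L at chr15:48386426-48417560 and MEN1 at chr2:7358130-7364952.

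**Figure D1:**
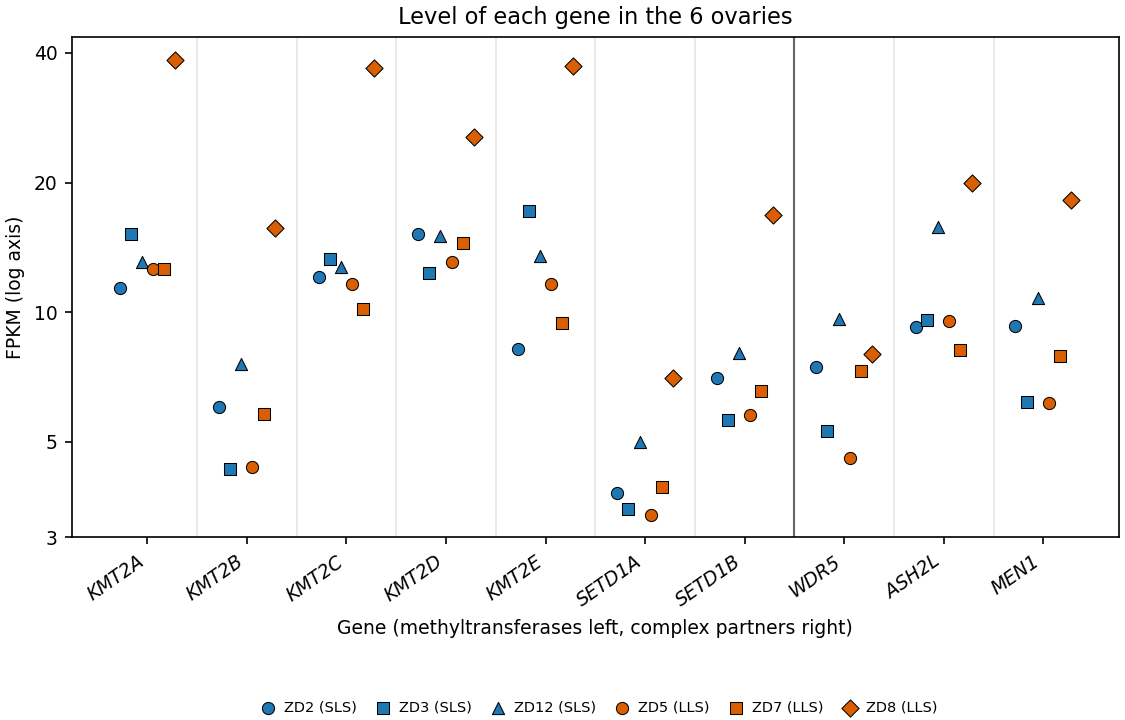
Level of each of the 10 genes in each ovary, in FPKM on a log axis, with SLS ovaries in blue and LLS ovaries in orange. ZD8 (orange diamond) is the highest point for 9 genes, while for WDR5 it lies below ZD12 (blue triangle).

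Between LLS and SLS no member was called at an adjusted p under 0.05 and an absolute log2 difference over 1 (limma), and 0% of the 12260 tested genes were. An unadjusted p under 0.05 was reached by 216 genes (1.76%) and by 0 members. The SLS and LLS values overlapped in all 10 members, where 628 of all genes (5.12%) had groups that did not. Without ZD8 limma called 21 genes (0.171%), none of them a member, and 2341 genes (19.1%) had groups that did not overlap, among them 1 member, KMT2C. The members' median log2 difference was 0.28 and that of all genes 0.02, and without ZD8 the median of all genes was -0.099. The 95% intervals were wide, from -0.82 to 1.52 in KMT2E, the widest, and from -0.46 to 0.96 in KMT2D, the narrowest of the 10. A log2 difference of 1 toward LLS lay inside the interval of 6 members and above that of KMT2D, SETD1A, WDR5 (-0.88 to 0.59) and ASH2L. An exact two-sided permutation test of 3 against 3 ovaries cannot go below p = 0.1, and the exact p-values of the members were 0.6 to 1.

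**Figure D2:**
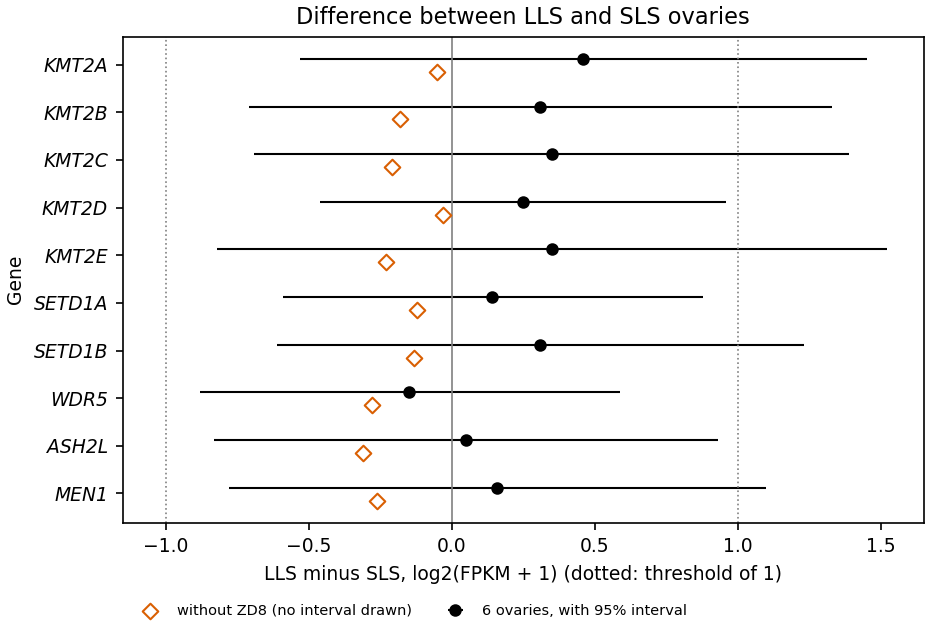
Log2 difference of LLS minus SLS for each gene, on the log2(FPKM + 1) scale, with its 95% interval over 6 ovaries (black) and without ZD8 (open orange diamonds). The 95% interval of every gene includes 0, and without ZD8 the difference of each gene is below 0, from -0.31 for ASH2L to -0.03 for KMT2D, where the median of all tested genes is -0.099.

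Set against its family, KMT2A was higher than the mean of the other 6 methyltransferases in every ovary, by 0.47, 0.84 and 0.40 on the log2 scale in ZD2, ZD3 and ZD12 and by 0.69, 0.63 and 0.90 in ZD5, ZD7 and ZD8. The SLS and LLS values overlapped, with means of 0.57 ± 0.24 and 0.74 ± 0.14 (SD, n = 3 each), a difference of 0.17. That difference was 0.095 without ZD8, 0.09 without ZD12, 0.308 without ZD3 and 0.103 with levels centred within GC classes. KMT2A exceeded KMT2B, SETD1A and SETD1B in 6 of 6 ovaries. It exceeded KMT2C in 5, KMT2E in 4 and KMT2D in 2 of the 6. Of the summed level of the 7 methyltransferases, KMT2A made up 17.5 to 21.7% in all ovaries, ZD8 included, although that sum was 178 FPKM in ZD8 and 62.5 to 74.9 FPKM in the other 5. KMT2A and KMT2C (20.7% against 16.1 to 18.9%) made up more of it in ZD8 than in any other ovary, and KMT2D (14.3% against 17.3 to 23.9%) and SETD1A (3.95% against 4.9 to 6.66%) less.

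**Figure D3:**
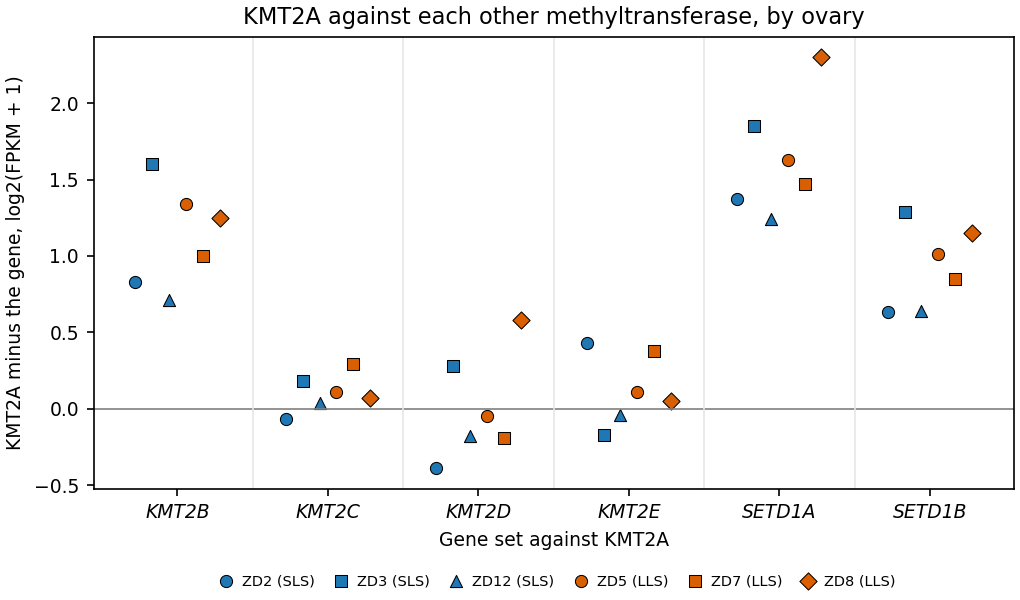
KMT2A minus each other methyltransferase in the same ovary, on the log2(FPKM + 1) scale, with SLS in blue and LLS in orange. KMT2A is above KMT2B, SETD1A and SETD1B in every ovary, whereas the points of KMT2C, KMT2D and KMT2E lie on both sides of 0.

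By level per length, averaged on the log2 scale over the 6 ovaries, the order was KMT2A (17.3 ± 10.5 FPKM), KMT2D (15.9 ± 4.81), KMT2C (16.1 ± 10.2), KMT2E (16.2 ± 10.8), ASH2L (12.1 ± 4.73), MEN1 (9.75 ± 4.49), SETD1B (8.31 ± 4.28), WDR5 (7.05 ± 1.85), KMT2B (7.29 ± 4.28) and SETD1A (4.43 ± 1.39). The first 4 did not separate: KMT2A exceeded KMT2D by only 0.01 ± 0.36 on the log2 scale (SD over 6 ovaries) and in 2 of 6 ovaries. Neighbours kept their order in all 6 ovaries in 2 places, MEN1 above SETD1B and KMT2B above SETD1A. Over the 5 ovaries without ZD8, KMT2D was first and KMT2A was next. WDR5 needs a caution, since its longest annotated transcript, which sets the length behind its FPKM, is a transcript of 5858 bases that is not annotated as mRNA, whereas its longest mRNA has 1499 bases. If every read of the gene came from that mRNA, WDR5 would stand at 27.6 ± 7.21 (17.9 to 37.7) per kilobase of it. This is an upper limit, since reads may also come from the longer transcript. At that limit WDR5 would be above every other member on average, although in ZD8 it would lie below KMT2A, KMT2C and KMT2E.

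ZD8 was the highest of the 6 ovaries for 9 of the 10 members, against 44.6% of all tested genes, and it exceeded the highest other ovary more than 2 times for 5 members (KMT2A, KMT2B, KMT2C, KMT2E and SETD1B), against 10.3%. On the log2 scale, ZD8 minus the mean of the other 5 was 1.60 for KMT2E, 1.55 for KMT2C, 1.51 for KMT2A, 1.36 for KMT2B, 1.24 for SETD1B, 1.11 for MEN1, 0.90 for ASH2L, 0.82 for KMT2D, 0.71 for SETD1A and 0.23 for WDR5. KMT2E was thereby at the 94.8 percentile of all genes and WDR5, equal to the median of all genes (0.23), at the 49.8 percentile. Long transcripts were higher in ZD8 as a whole: the median of all genes was -0.12 for transcripts up to 1 kb, 0.17 for 2 to 4 kb, 0.39 for 4 to 8 kb, 0.52 for 8 to 12 kb and 0.74 above 12 kb. KMT2D (21.4 kb) lay near the median of its length class, WDR5 (5.86 kb) below it, and the other 8 members above theirs, including the short transcripts of ASH2L (3.14 kb) and MEN1 (2.81 kb). By the length of its mRNA, WDR5 would fall in the class of 1 to 2 kb, whose median was -0.08, and would lie above it. The luteal, theca, oocyte and endothelial marker levels given above also moved with ZD8, and so did its depth. All 3 proliferation markers were lowest in ZD8 (summed level 21 FPKM, against 32.7 to 57.4). All 4 immune markers were highest in it (22.4 against 11.9 to 17.2 FPKM). The sum of 4 smooth muscle markers in ZD8 (892 FPKM) lay inside the range of the others (310 to 1770), but the markers differed. MYH11 (190 against 15.5 to 47.1 FPKM) and DES (27.1 against 7.73 to 25.1 FPKM) were highest in ZD8, and ACTA2 and TAGLN were not. The part of transcript length, of these markers and of depth in the members' values was not tested.

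**Figure D4:**
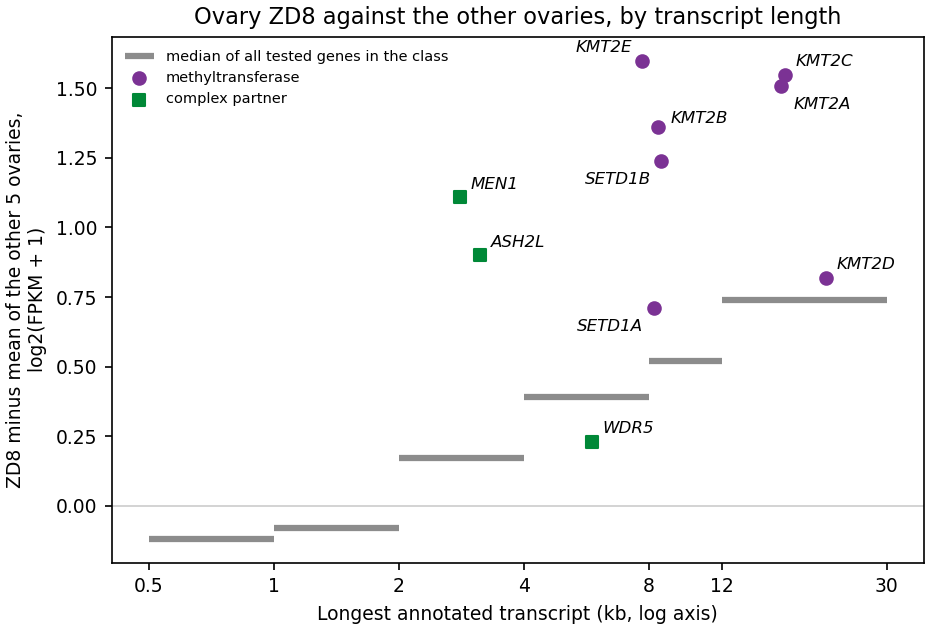
Log2 level in ZD8 minus the mean of the other 5 ovaries against the length of the longest annotated transcript (kb, log axis), for the 7 methyltransferases (purple) and the 3 partners (green), with the median of all tested genes in each length class as a grey bar. The lowest and highest classes are open and their bars are drawn to 0.5 and 30 kb. WDR5, placed by its transcript that is not mRNA, is below the bar of its class and would be above that of its mRNA length, and the other 9 genes are above theirs, KMT2D and SETD1A by the least.

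Among the other 5 ovaries the members differed in which was highest. KMT2A, KMT2C and KMT2E were highest in ZD3, KMT2B, SETD1A, SETD1B, WDR5, ASH2L and MEN1 were highest in ZD12, and KMT2D was highest in ZD2, with KMT2C (13.3 against 12.7 FPKM) and KMT2D (15.2 against 15 FPKM) close between ovaries. The log2 level of ZD12 minus ZD3, both SLS ovaries, was -0.33 for KMT2E, -0.20 for KMT2A and -0.06 for KMT2C, and it was 0.76 for WDR5, 0.72 for MEN1, 0.69 for KMT2B, 0.67 for ASH2L, 0.45 for SETD1B, 0.42 for SETD1A and 0.27 for KMT2D. Base composition moved with these values, and its part in them was not tested. The GC content of the longest transcript was 42.8% in KMT2E, 48.8% in KMT2A and 51.3% in KMT2C, and 58.9% or more in KMT2B, KMT2D, SETD1A, SETD1B, WDR5 and MEN1. Over all genes the same difference had a median of -0.43 at a GC content up to 40% and of 0.64 above 60%. Several members departed from their class. ASH2L, at a GC content of 49.6%, differed by 0.67 and KMT2A by -0.20, where the median of their class was 0.05. KMT2C (-0.06) and KMT2D (0.27) lay below the medians of theirs, 0.25 and 0.64. The LLS ovaries ZD7 and ZD5 repeated the order in part, with medians over all genes of -0.40 and 0.32 in the same outer classes, and with ZD7 minus ZD5 at -0.28 for KMT2E, 0.00 for KMT2A, 0.34 for KMT2B, 0.57 for WDR5 and -0.20 for ASH2L.

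**Figure D5:**
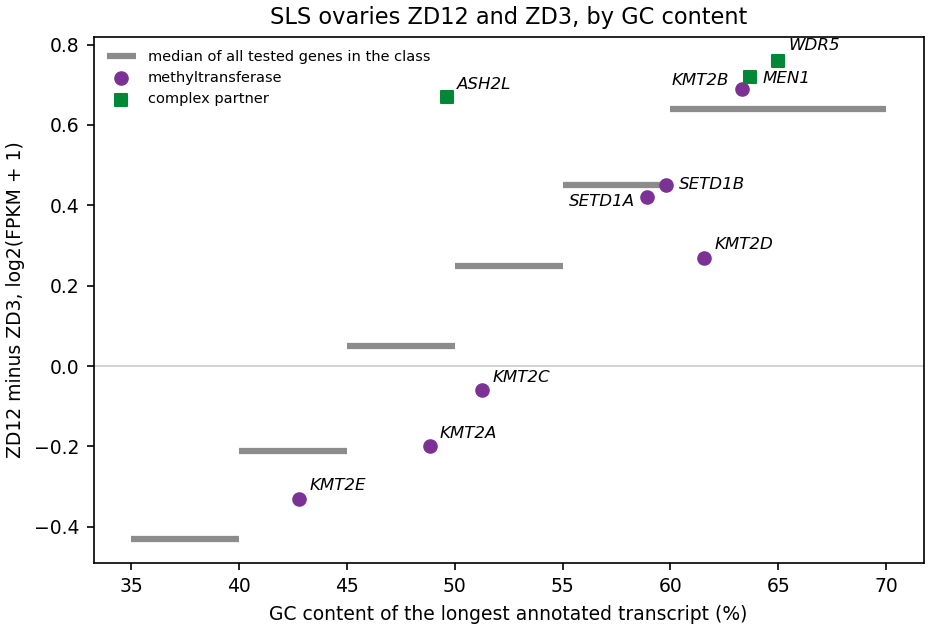
Log2 level in ZD12 minus ZD3 against the GC content of the longest annotated transcript, with the median of all tested genes in each GC class as a grey bar, the outer bars standing for all genes up to 40% and above 60%. ASH2L lies far above the bar of its class, KMT2A, KMT2C and KMT2D lie below theirs, and the other 6 lie closer to theirs.

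The other genes of the pathway were taken as 6 lists of 47 genes, of which 46 were in the table and 42 passed the filter on low values. LLS and SLS differed by the calling rule in 0 of the 42, and ZD8 was highest in 34 (against 44.6% of all tested genes) and exceeded the highest other ovary more than 2 times in 8 (against 10.3%). The list medians below stand beside the median of all genes of 0.23, and beside medians by length class of up to 0.74. In the 14 other COMPASS subunits ZD8 was highest in all 14, with a median log2 excess over the other ovaries of 0.89. TASP1, the protease that cleaves KMT2A into its active form, had 1.13, 1.49 and 1.98 FPKM in SLS and 1.99, 1.31 and 6.05 FPKM in LLS, and its ZD8 value was 3.04 times the highest other. RBBP5, the core partner of ASH2L, had 13.1, 14 and 16.2 FPKM in SLS and 13, 13.6 and 28.4 FPKM in LLS. DPY30, the small core subunit, had 15.5, 17.8 and 15.3 FPKM in SLS and 17.5, 11.5 and 18.5 FPKM in LLS. ZD8 was thus 1.76 times the highest other ovary for RBBP5 and 1.04 times for DPY30.

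The 6 genes of lysine 4 demethylation, which removes the mark, had a median log2 excess of 0.60 in ZD8, which was highest in all but RCOR1. KDM5A, a demethylase of the trimethyl mark, had 7.1, 8.82 and 8.42 FPKM in SLS and 8.21, 7.82 and 18.7 FPKM in LLS, whereas KDM5C, a demethylase of the same family, was only 1.04 times as high in ZD8 as in the highest other ovary. Of the 3 other lysine 4 methyltransferases that passed the filter, outside the KMT2 family, ZD8 was highest in 1 (SMYD3), and the median excess was 0.02. SETD7, which was named a lysine 4 monomethylase, had 24.2, 28.8 and 24.1 FPKM in SLS and 24.9, 23.9 and 20.2 FPKM in LLS, where ZD8 was the lowest ovary. The high values in ZD8 were therefore not common to all enzymes of this reaction. SMYD2 (1.81 kb) and SMYD3 (1.59 kb) belong to the length class of 1 to 2 kb, whose median over all genes was -0.08. SETD7 (7.03 kb) belongs to that of 4 to 8 kb, with a median of 0.39. The part of transcript length in this contrast was not tested.

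Of the 7 elongation partners, with which KMT2A is fused in leukaemia or which work beside them, ZD8 was highest in 5, with AFF4 and DOT1L as the exceptions, and of the 9 readers of the trimethyl mark in 7, with ING2 and CHD1 as the exceptions. The median log2 excess in ZD8 was 1.08 in the first list and 0.92 in the second. Of 6 known targets 3 passed the filter. MEIS1, a target of KMT2A and menin, had 4.37, 4.55 and 7.3 FPKM in SLS and 3.66, 4.14 and 27.2 FPKM in LLS, the most uneven of these. HOXA9, the best known target, was below the filter at 0.0169 to 0.243 FPKM in 5 ovaries and 0.727 FPKM in ZD8. CDKN2C, a cell cycle inhibitor under menin, was the 1 gene of these 42 whose groups did not overlap, against 5.12% of all tested genes, with 10.9, 11.7 and 11.3 FPKM in SLS and 10.1, 7.78 and 5.71 FPKM in LLS. Its log2 difference of -0.51 (SE 0.28) was not called (limma adjusted p = 0.999), and without ZD8 it was -0.32 (SE 0.24, limma adjusted p = 1). The proliferation markers MKI67 and CCNB1, of 3, also had LLS values below all SLS values and were not called. MKI67 was at 13.5 ± 0.645 FPKM in SLS and 8.17 ± 2.94 in LLS, CCNB1 at 15 ± 2.63 and 8.39 ± 1.82. The groups of TOP2A overlapped. Without ZD8 the log2 differences of MKI67, CCNB1 and TOP2A were -0.44, -0.63 and -0.38. LHCGR (luteal, log2 difference -1.28), INHA (granulosa, -1.86) and PECAM1 (endothelial, -0.96) likewise had LLS values below all SLS values and were not called. Without ZD8 their log2 differences were -0.92, -1.3 and -0.52. The part of these markers in CDKN2C was not tested. Without ZD8 limma called 0 of the 42 list genes, and 8 had groups that did not overlap (PAXIP1, BOD1, AFF1, ING1, SPIN1, MEIS1 and CDKN2C lower in LLS and RCOR1 higher), against 19.1% of all tested genes. Markers of several cell types also separated these ovaries. LHCGR, INHA, FOXL2, CYP17A1, PECAM1, ACTA2, MYH11, DES, MKI67 and CCNB1 were lower in LLS, and SCARB1, PTGFR, VWF and KDR were higher. The part of these markers in the list genes was not tested.

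By the root mean square difference of log2 levels, after each gene's own average was subtracted, over the 6 ovaries the 5 genes nearest to KMT2A of 12259 were MAPKAPK5 (0.074), MAGI3 (0.076), ZNF713 (0.083), BACH2 (0.088) and NSD3 (0.091). MAPKAPK5, a protein kinase, ran from 11.4 to 15.6 FPKM in the other ovaries and reached 37.8 FPKM in ZD8. NSD3 encodes a histone methyltransferase of another lysine, 36 of H3, and ran from 5.33 to 7.59 FPKM with 17.9 FPKM in ZD8. Of the members, KMT2C was the nearest, at rank 16 (0.113), followed by KMT2E at rank 424 (0.215), and WDR5 was the farthest at rank 6649 (0.593). Which genes were nearest depended on ZD8: without it the 5 nearest were ZNF462, CAPRIN1, NDUFS1, DNAAF2 and LRR1, none of them among the 5 above. KMT2C was then at rank 905, although its difference from KMT2A changed little (0.123). It was still the nearest member, followed by SETD1A (0.212).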

How the data were processed

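RNA of 6 ovaries was analysed (3 SLS, 3 LLS). The authors depleted ribosomal RNA, made libraries with the second strand removed, trimmed the reads, mapped them with HISAT2 (submitters' processing notes: Sscrofa 11.1) and deposited FPKM values per gene. The program that counted reads is not given in the sources used here. The libraries of small RNA were not used. FPKM divides by transcript length, and the library totals were inferred from the smallest FPKM values. With these totals and the longest transcript of RefSeq annotation release 106, the values gave whole reads (tolerance 0.001 reads) for 23477 of 23564 genes above 0 (99.6%).

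LLS and SLS were compared by limma 3.58.1 (R 4.3.3) with a trended variance on log2(FPKM + 1), for genes with at least 1 FPKM in at least 3 libraries (12260 genes), with Benjamini-Hochberg adjustment over all of them. A gene was called at an adjusted p under 0.05 and an absolute log2 difference over 1. The difference understates the change of low genes. An exact permutation test over the ovaries (two-sided) stands beside the model for each member. The script was tested on simulated data. All 10 members are named. Pathway genes are named for being highest or lowest in a list, for being its exceptions or for groups that did not overlap. Not every such gene is named: KDM1B, MLLT3 and PHF8, each with the largest ZD8 ratio of its list, are left out. The genes nearest to KMT2A are the 5 with the smallest root mean square difference. RBBP5, DPY30, KDM5A, SETD7 and HOXA9 were named for their roles after their values were seen. KDM5C was named as a contrast to KDM5A, likewise after its values were seen. Members and lists were chosen with earlier results of these data known. Alternatives covered the pseudocount, the filter, the scaling of libraries, array weights, voom on the recovered reads, each ovary left out and 2 added after seeing the data (GC classes, the length of WDR5). Sequences and places are from RefSeq (Sscrofa11.1), in which all 10 members were found, and figures were drawn with matplotlib 3.10.9. The labels name separate ovaries, so that p-values measure the spread between these ovaries.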

Additional observations from a re-analysis of the deposited data

How the results depend on the processing

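No member was called, or had an unadjusted p under 0.05, in any of the 14 alternatives to the main test. Called genes over all tested genes numbered 0 in the main test, 13 with array weights (which gave ZD8 a weight of 0.135 and the others 0.597 to 2.27) and 0 to 21 when ovaries were left out in turn, with 21 without ZD8. The count of members whose groups did not overlap was 0 to 1 in those fits, the 1 being KMT2C without ZD8. Without ZD8 the groups of 19.1% of all tested genes did not overlap. Array weights moved the median difference of all genes from 0.02 to -0.117 and turned the log2 differences of 8 members below 0: KMT2B -0.261, KMT2C -0.145, KMT2D -0.0576, KMT2E -0.114, SETD1A -0.171, SETD1B -0.174, ASH2L -0.396 and MEN1 -0.349. They moved KMT2A from 0.458 to 0.0255 and WDR5 from -0.148 to -0.405. Leaving out 1 ovary at a time, the log2 difference ran from -0.0545 to 0.715 for KMT2A, -0.181 to 0.637 for KMT2B, -0.205 to 0.675 for KMT2C, -0.0343 to 0.421 for KMT2D, -0.226 to 0.71 for KMT2E, -0.12 to 0.314 for SETD1A, -0.132 to 0.568 for SETD1B, -0.346 to 0.0613 for WDR5, -0.313 to 0.283 for ASH2L and -0.258 to 0.452 for MEN1. Leaving out ZD8 gave the lower end for 9 members, leaving out ZD12 or ZD5 turned WDR5, leaving out ZD2 or ZD3 turned ASH2L and leaving out ZD3 turned MEN1. The cause was not tested. KMT2A was at rank 2 by level with the median over ovaries, without ZD8 and with all WDR5 reads assigned to its mRNA, and 4, 6 and 2 members kept their rank in these. Adjusted p-values of the members ran from 0.605 to 1. The group left with fewer ovaries was assumed to vary like the other. The part of the lower depth of ZD8 was not tested.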
